A study of Homo sapiens with 6 samples.

Results

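The 9 genes NQO1, GCLC, GCLM, TXNRD1, SRXN1, AKR1B10, AKR1C1, FTL and SLC7A11, known targets of the transcription factor NRF2, were examined in a lung cancer cell line. They were chosen by name, with every probe that the HumanHT-12 v4 annotation gives them, which made 14 of the 47323 probes on the array and 9 of the 20046 genes named there. NCI-H460, an established human large cell lung carcinoma line, carries a mutant KEAP1. The study set a CSC-rich population (rich in cancer stem cells), obtained from this line by growing it as spheroids, against the parental wild type cells. Each population gave 1 array of cells treated with PNAs-A15, 1 of scramble-treated cells and 1 of control cells, so there were 6 groups with 1 array each and no replicate. PNAs-A15 was applied for 6 h, while the labels state no time for the scramble. The labels do not explain the code name PNAs-A15, and the CSC-rich array labelled as PNA-treated was taken to have had the same agent. Fetal bovine serum at 10% was given to the parental culture, and no serum is named for the CSC-rich culture, so the effect of serum and that of the population cannot be told apart.

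NRF2 (the product of NFE2L2) is a transcription factor that KEAP1 holds at low levels by marking it for degradation. Oxidants and electrophiles, or loss of KEAP1 function as in many lung cancers, free NRF2 to pair with small MAF proteins at antioxidant response elements. Its targets make and use glutathione, reduce thioredoxin and peroxiredoxins, detoxify quinones and carbonyls, and store iron.

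The promoters of GCLM and TXNRD1 are shown because they were the member promoters in which the letters of the element's core were found. RefSeq promoters (GRCh38.p14), running from 250 bases before to 50 bases after a gene's start, were matched for 7 of the 9 members, with 2 promoters for TXNRD1 and 8 in all. AKR1B10 and SLC7A11 had no entry. The core TGACNNNGC was searched on both strands and is in capitals below, in its reverse complement where it lies on the opposite strand.
GCLM, chr1:93909381-93909680, minus strand: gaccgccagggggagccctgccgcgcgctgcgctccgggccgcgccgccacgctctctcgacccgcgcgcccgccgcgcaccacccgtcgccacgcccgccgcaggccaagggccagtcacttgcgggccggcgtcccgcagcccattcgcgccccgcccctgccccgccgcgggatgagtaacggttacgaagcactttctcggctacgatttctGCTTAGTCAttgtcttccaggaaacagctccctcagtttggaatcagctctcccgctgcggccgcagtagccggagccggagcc
TXNRD1, chr12:104215529-104215828, plus strand: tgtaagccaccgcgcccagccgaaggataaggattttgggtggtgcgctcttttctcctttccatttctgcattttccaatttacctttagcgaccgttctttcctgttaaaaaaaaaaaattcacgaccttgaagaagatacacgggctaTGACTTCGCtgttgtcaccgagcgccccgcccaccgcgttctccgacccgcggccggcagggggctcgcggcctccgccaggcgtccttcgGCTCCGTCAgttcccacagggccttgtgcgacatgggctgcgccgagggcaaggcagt
TXNRD1, chr12:104286782-104287081, plus strand: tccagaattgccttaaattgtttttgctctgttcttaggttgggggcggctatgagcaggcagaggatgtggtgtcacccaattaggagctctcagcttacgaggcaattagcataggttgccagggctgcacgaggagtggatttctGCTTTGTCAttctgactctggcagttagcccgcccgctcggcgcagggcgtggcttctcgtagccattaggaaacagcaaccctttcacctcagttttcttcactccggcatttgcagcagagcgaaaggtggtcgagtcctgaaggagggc
In GCLM the match reads TGACTAAGC on the opposite strand, 34 bases before the start. The upstream TXNRD1 promoter holds TGACTTCGC on its own strand 99 bases before the start and TGACGGAGC on the opposite strand, beginning 8 bases before the start. The downstream TXNRD1 promoter holds TGACAAAGC on the opposite strand, 102 bases before the start. None of these 4 matches overlaps the AP-1 motif TGANTCA, which no member promoter held and which 7.71% of all 35116 promoters hold. The core itself is in 13.3% of all promoters, and a match describes the letters of a window, nothing more.

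Each array gave a signal intensity and a detection p-value per probe, and a probe is called detected here where that p was under 0.05. Between 36.5% and 42.8% of probes were detected on an array. The lowest shares came from the parental PNAs-A15 array at 36.5% and the CSC-rich scramble array at 38.5%. Across probes, Pearson's r of the parental PNAs-A15 array with the other arrays was 0.845 to 0.868, while the highest r between other arrays was 0.992. Those 2 arrays also gave the lowest signals of several members, and what part this has in the results was not tested; the population differences were refitted without them. Of the epithelial markers, KRT8 and KRT19 were detected on all 6 arrays, KRT7 on 1, and KRT18, EPCAM and CDH1 on none. The lung markers NKX2-1, SFTPB and SFTPC were detected on none. Of the stem cell markers, CD44, SOX2, ABCG2 and ALDH1A1 were detected on all 6 arrays of both populations, and PROM1, NANOG and POU5F1 on none. Of other cell types, the fibroblast gene DCN and the leukocyte gene CD14 were detected on all 6 arrays, while COL1A1 and PTPRC were detected on none. In bulk RNA, fewer cells of a type and less RNA per cell cannot be told apart.

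In all, 8 of the 9 members were detected in both populations, and 12 of the 14 probes were detected on all 6 arrays. Between CSC-rich and parental cells no member passed the test. In control cells every detected member lay within 2-fold between the populations. Against the control array of the same population, detected member probes were at least 2-fold lower on the parental PNAs-A15 array (GCLC, GCLM, TXNRD1, SRXN1 and FTL by 1 probe each) and on the CSC-rich scramble array (both FTL probes and the second of TXNRD1). Of all probes detected on both arrays compared, 13.5% were at least 2-fold lower and 22.5% higher in the first difference. In the second, 3.37% were lower and 0.725% higher. Under median scaling 2 member probes stayed at least 2-fold lower in the first and 0 in the second. After quantile normalization the bright NQO1 probe and AKR1B10 stayed within 0.519 and 0.449 of a log2 unit over all 6 arrays. Under median scaling they lay 1.47 and 0.69 log2 units above scramble on the parental PNAs-A15 array. In the text below, "signal" is the deposited intensity, and "log2 level" is the background-corrected, quantile-normalized value, on which all differences are taken unless another scale is named.

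**Figure D1:**
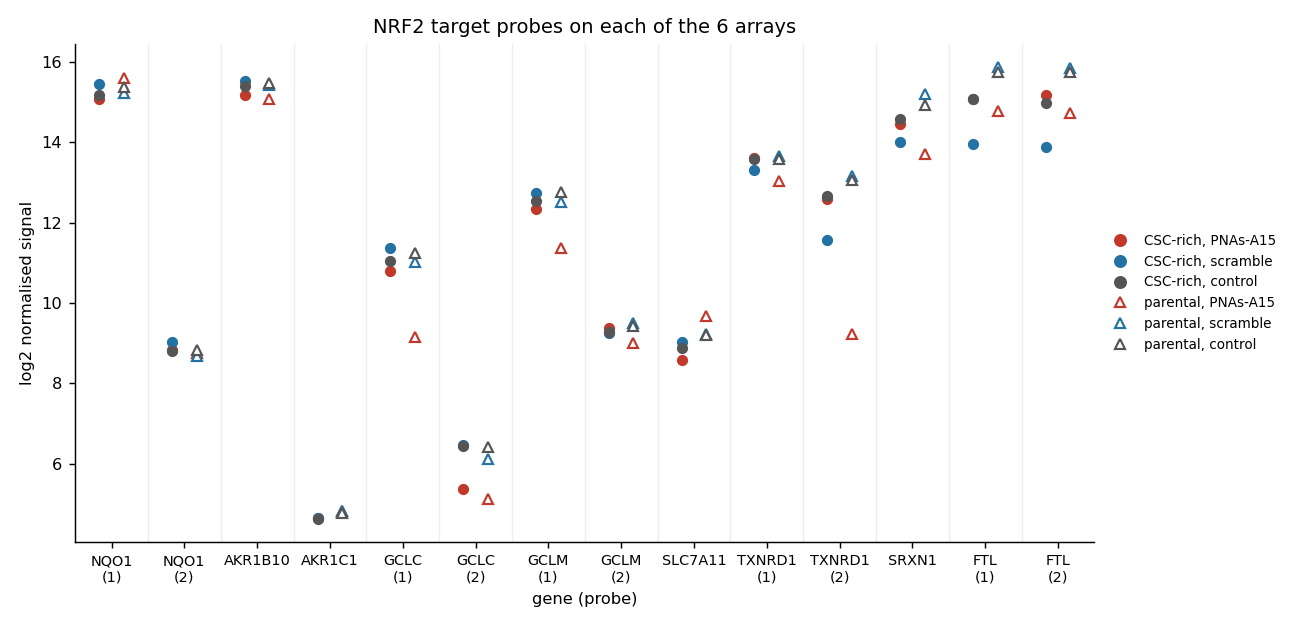
Log2 normalised signal (y axis) of the 14 probes of the 9 NRF2 targets (x axis) on each of the 6 arrays, with filled circles for CSC-rich and open triangles for parental cells and the colour giving the treatment. The second TXNRD1 probe has the widest range, 3.92 log2 units, with the parental PNAs-A15 array lowest at 9.23, and AKR1C1 was not detected on any array.

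GCLC and GCLM encode the catalytic and the modifier subunit of glutamate-cysteine ligase, the rate-limiting enzyme of glutathione synthesis. The first GCLC probe (ILMN_1730575) had signals of 1895, 2569 and 2331 on the CSC-rich arrays of PNAs-A15, scramble and control, against 421, 2570 and 2814 on the parental arrays in that order. Its parental PNAs-A15 array stood alone at the low end, and the other 5 arrays lay close together. CSC-rich minus parental cells gave a log2 difference of 0.60 ± 0.44 (SE, 3 arrays per population; 95% interval -0.47 to 1.67), with limma's adjusted p at 0.575. In parental cells, the log2 difference of PNAs-A15 was -1.85 from scramble and -2.08 from control, or 3.61-fold and 4.24-fold lower. In CSC-rich cells the same log2 differences were -0.59 and -0.27.

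The second GCLC probe (ILMN_2215194) was dim. Its signals were 140.4, 177.4 and 202.8 on the CSC-rich arrays of PNAs-A15, scramble and control, against 119.1, 193.8 and 199.7 on the parental arrays, and it was detected on 4 arrays, on neither of PNAs-A15. Its level under PNAs-A15 has therefore only an upper bound, taken as the lowest detected signal of the array. Counted in this way it was at least 1.65-fold lower than scramble and at least 1.62-fold lower than control in CSC-rich cells, and at least 1.05-fold and 1.28-fold lower in parental cells. Over both populations it was at least 1.32-fold lower than scramble and at least 1.44-fold lower than control. Limma's adjusted p-values of 0.849 and 0.805 belong to its measured values, undetected under PNAs-A15, and not to these bounds. The first GCLC probe lay lower on the PNAs-A15 array than on the scramble and control arrays of each population, without passing the test. The second was kept (detected on at least 2 arrays) only through the scramble and control arrays. Its low PNAs-A15 values therefore add no support to the first.

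For GCLM, the first probe (ILMN_1788547) had signals of 5181, 6275 and 6211 on the CSC-rich arrays of PNAs-A15, scramble and control, against 2042, 6853 and 7665 on the parental arrays. Its second probe (ILMN_2225974) had 810.9, 631.0 and 778.1 in CSC-rich cells, against 382.1, 1003.1 and 896.3 in parental cells. Both probes were lowest on the parental PNAs-A15 array. There the first was 2.22-fold below scramble and 2.66-fold below control, and the second 1.41-fold and 1.34-fold. The first probe's log2 differences there were -0.56 and -0.86 under median scaling, both under 2-fold, and -1.75 and -1.91 on the unnormalized signals. In CSC-rich cells the first probe was 1.30-fold below scramble under PNAs-A15, and the second 1.09-fold above it. The population differences, 0.33 ± 0.38 and -0.007 ± 0.34 on the log2 scale (SE, 3 arrays per population), had adjusted p-values of 0.739 and 0.995 in limma's fit.

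SLC7A11 is the light chain of the cystine importer that supplies cysteine for glutathione. Its probe (ILMN_1655229) had signals of 530.8, 554.4 and 631.7 on the CSC-rich arrays of PNAs-A15, scramble and control, against 600.1, 863.6 and 783.0 on the parental arrays. On the log2 scale after normalization the levels were 8.59, 9.03 and 8.88 in CSC-rich cells and 9.68, 9.24 and 9.19 in parental cells, so the populations did not overlap there, while the signals themselves did. The log2 difference of -0.54 ± 0.36 (SE, 3 arrays per population; 95% interval -1.40 to 0.32) did not pass limma's test at an adjusted p of 0.531. Under PNAs-A15, parental SLC7A11 differed from scramble by 0.45 log2 units after normalization and by -0.53 on the unnormalized signals, so its direction depends on the scaling.

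TXNRD1, the cytosolic thioredoxin reductase, gave the widest range and the sharpest disagreement between probes. The annotation ties its probes to different transcripts of the gene. The first (ILMN_1717056) had signals of 12531, 9068 and 12622 on the CSC-rich arrays of PNAs-A15, scramble and control, against 7374, 14799 and 13290 on the parental arrays. The second (ILMN_2324421) had 6158, 2891 and 6728 in CSC-rich cells, against 442.6, 10634 and 9441 in parental cells. Both probes put the parental PNAs-A15 array lowest and the CSC-rich scramble array next. The second was 15.2-fold below scramble and 14.4-fold below control under PNAs-A15 in parental cells, and the first 1.53-fold and 1.46-fold. Under median scaling the direction of the first turned, with log2 differences of 0.22 from scramble and 0.24 from control. In CSC-rich cells, PNAs-A15 minus control was 0.02 for the first and -0.08 for the second, both near 0.

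The gap between the TXNRD1 probes in the parental PNAs-A15 minus scramble difference was 3.31 log2 units. Of 2523 genes with 2 probes kept, 573 (22.7%) had probes at least 4-fold apart in that same difference. The share was 20.2% in parental PNAs-A15 minus control and 20.1% in CSC-rich minus parental cells under PNAs-A15, the other differences that use this array. It was 6.62% in CSC-rich minus parental cells under scramble and 1.51% in CSC-rich PNAs-A15 minus scramble, and between 0% and 0.634% in the 4 remaining differences. For CSC-rich minus parental cells, the first probe gave a log2 difference of 0.07 ± 0.35 and the second 0.46 ± 0.90 (SE, 3 arrays per population), with limma's adjusted p at 0.951 and 0.865. Without either PNAs-A15 array the second probe turned to -0.998 (adjusted p 0.0731), and its 95% interval over all arrays ran from -1.73 to 2.64.

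SRXN1 encodes sulfiredoxin, which restores overoxidised peroxiredoxins. Its probe (ILMN_1804822) had signals of 23781, 14365 and 25314 on the CSC-rich arrays of PNAs-A15, scramble and control, against 12306, 40134 and 31765 on the parental arrays. The parental scramble and control arrays were the highest and the parental PNAs-A15 array the lowest, followed by CSC-rich scramble. Parental PNAs-A15 was 2.80-fold below scramble and 2.34-fold below control, but 1.39-fold and 1.21-fold below them under median scaling. The population difference was -0.27 ± 0.45 (log2, SE, 3 arrays per population), at an adjusted p of 0.835 in limma's fit.

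NQO1, a quinone reductase, had a bright and a dim probe. The bright one (ILMN_1720282) had signals of 37489, 39200 and 39209 on the CSC-rich arrays of PNAs-A15, scramble and control, against 48141, 40862 and 42941 on the parental arrays. The dim one (ILMN_2354953) had 601.5, 549.9 and 600.8 in CSC-rich cells, against 334.6, 630.4 and 628.4 in parental cells. The parental PNAs-A15 array was thus the highest of the 6 by the bright probe's signal and the lowest by the dim probe's. After normalization the dim probe's levels ran from 8.68 to 9.02, and the populations overlapped for both probes. Population differences were -0.17 ± 0.34 and 0.12 ± 0.32 (log2, SE, 3 arrays per population), with limma's adjusted p at 0.871 and 0.906.

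AKR1B10 and AKR1C1 are aldo-keto reductases that reduce carbonyls. The AKR1B10 probe (ILMN_1672148) had signals of 39289, 41853 and 47333 on the CSC-rich arrays of PNAs-A15, scramble and control, against 31751, 46274 and 46239 on the parental arrays. It was lowest on the PNAs-A15 array of each population. Its population difference was 0.04 ± 0.32 (log2, SE; 95% interval -0.73 to 0.82), with limma's adjusted p at 0.969. Under PNAs-A15 it was 1.28-fold below scramble in parental cells after quantile normalization and 1.62-fold above it under median scaling. The AKR1C1 probe (ILMN_1662507) had signals of 87.2 to 111.9 and detection p-values of 0.756 to 0.97, was not detected on any array, and was left out of the fits with no fold given.

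FTL encodes the light chain of ferritin, the iron store. Its first probe (ILMN_1740429) had signals of 37282, 13816 and 36690 on the CSC-rich arrays of PNAs-A15, scramble and control, against 25175, 61743 and 54458 on the parental arrays. Its second (ILMN_1814823) had 39255, 13085 and 34387 in CSC-rich cells, against 24006, 60567 and 54495 in parental cells. Both probes gave the same order: CSC-rich scramble lowest, parental PNAs-A15 next, then the other CSC-rich arrays, and the parental scramble and control arrays highest. The parental scramble values lay close to the brightest signal of any probe on that array, 63801, and were the members' nearest to the top of the scale.

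The log2 difference between CSC-rich and parental cells was -0.77 ± 0.48 for the first FTL probe and -0.76 ± 0.51 for the second (SE, 3 arrays per population), with limma's adjusted p at 0.510 and 0.537. In control cells alone it was -0.66 and -0.77, and in scramble-treated cells -1.93 and -1.96, while under PNAs-A15 it was 0.29 and 0.46. Leaving out both PNAs-A15 arrays gave -1.30 (adjusted p 0.0245) and -1.37 (adjusted p 0.0176) in limma's fit, so both probes then passed, whereas leaving out both scramble arrays gave -0.185 and -0.156. In a fit of population alone without the CSC-rich scramble and parental PNAs-A15 arrays, chosen after seeing the data, the values were -0.74 (adjusted p 0.0218) and -0.72 (adjusted p 0.0271). Those fits called 15.8% and 23.3% of all probes.

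For CSC-rich against parental cells as a whole, limma called 0 of the 13 member probes that passed the filter on dim probes, where it called 157 of 21526 probes (0.729%). The 13 are not all members, since AKR1C1 did not pass. No member probe had an unadjusted p under 0.05 either, whereas 15.2% of all probes did. Of the member differences, 7 lay above 0 and 6 below, and their median was 0.045 against -0.0159 for all probes. The labels name no separate cultures, so the p-values cover the spread among these 6 arrays and nothing more. Taking the populations' control arrays alone, 0 member probes were 2-fold apart in either direction, where 5.57% of all probes were at least 2-fold higher and 5.86% at least 2-fold lower. There, 11 of the 13 member differences were below 0, with a median of -0.213 and a range of -0.77 to 0.02, and the median over all probes was 0.016. In the scramble pair, 4 member probes were at least 2-fold lower (FTL by 2, TXNRD1 and SRXN1 by 1 each) and 0 higher, where 15.2% of all probes were lower and 13.6% higher. In the PNAs-A15 pair, 2 were at least 2-fold higher (the first GCLC and the second TXNRD1 probe) and 1 lower (SLC7A11), where 19.9% of all probes were higher and 18.7% lower.

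**Figure D2:**
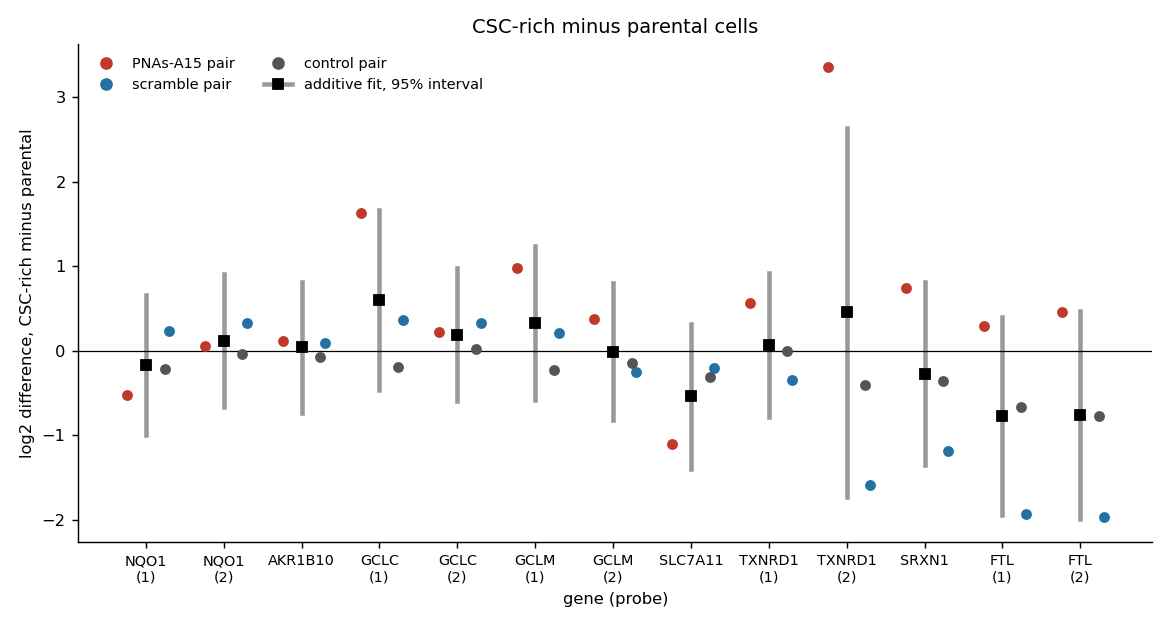
Log2 difference of CSC-rich minus parental cells (y axis) for the 13 member probes kept (x axis), as circles for the single PNAs-A15, scramble and control pairs and as squares with 95% intervals for limma's additive fit over 6 arrays. All 13 intervals cross 0, and the control pairs lie between -0.77 and 0.02, whereas the PNAs-A15 pair of the second TXNRD1 probe reaches 3.37 and the scramble pairs of FTL -1.93 and -1.96.

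PNAs-A15 was set against scramble and against control, and these comparisons share the PNAs-A15 arrays. Over both populations limma called 0 of 13 member probes against scramble and 0 against control, and it called no probe of any gene in either (0% of 21526). At limma's unadjusted p under 0.05 there was 1 member probe in each, the dim second GCLC probe, where 2.83% and 2.67% of all probes reached that p in either direction. This probe was not detected on either PNAs-A15 array and was kept only through the other arrays. Its p-values rest on undetected levels, so no conclusion is drawn from them. The widest fitted values were those of the second TXNRD1 probe, -1.45 ± 1.11 against scramble and -1.96 ± 1.11 against control (log2, SE, 2 arrays per treatment). The first GCLC probe was at -1.22 ± 0.54 and -1.17 ± 0.54, with adjusted p-values of 0.849 and 0.805 for both. The member median was -0.183 against scramble and -0.419 against control, beside 0.0841 and 0.072 for all probes.

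In parental cells, 6 of 13 member probes were at least 2-fold lower under PNAs-A15 than under scramble (GCLC, GCLM, TXNRD1 and SRXN1 by 1 probe each and FTL by 2) and 0 at least 2-fold higher. Of all probes, 19.7% were at least 2-fold lower and 19.5% at least 2-fold higher. Against control, 5 of the 12 detected on both arrays were at least 2-fold lower (GCLC, GCLM, TXNRD1, SRXN1 and FTL by 1 probe each) and 0 higher. Of the 15895 probes of any gene detected on both, 13.5% were lower and 22.5% higher, and of all probes kept 19.3% and 19%. The second GCLC probe has there only the bound given above, which is under 2-fold. These counts depend on the scaling: under median scaling 2 were lower and 1, the bright NQO1 probe, was higher against each, and on the unnormalized signals 8 were lower than scramble and 7 lower than control. Under median scaling, 13.1% of all probes were lower and 35.9% higher than scramble, and 12.9% and 34.6% than control. On the unnormalized signals, 27% of all probes were lower than scramble and 23.1% lower than control. The members' median against scramble was -0.995 after quantile normalization, -0.087 under median scaling and -1.29 on the unnormalized signals, beside medians of 0.111, 0.622 and -0.438 for all probes. The first GCLC probe (-1.85, -1.70 and -2.61) and the second TXNRD1 probe (-3.92, -3.71 and -4.59) were at least 2-fold lower than scramble under all 3 scalings. FTL, at -1.11 and -1.12 after quantile normalization, was at -0.06 and -0.10 under median scaling.

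In CSC-rich cells the 12 member probes detected on both arrays lay within 2-fold between PNAs-A15 and control. Their log2 differences ran from -0.30 to 0.20, with 0 at least 2-fold higher and 0 lower (0.311% and 0.246% of all probes, and 0.245% and 0.12% of the 18377 probes detected on both). Against scramble, 3 of these 12 were at least 2-fold higher, both of FTL (1.11 and 1.30) and the second of TXNRD1 (1.03), and 0 were lower. The dim GCLC probe has in both differences the bound given above, which is under 2-fold. Of all probes, 8.23% were higher and 3.04% lower than scramble, and of the 17078 detected on both arrays 7.0% and 3.0%. Scramble minus control shows the same probes from the other side, since both differences use the CSC-rich scramble array: FTL at -1.13 and -1.11 and the second TXNRD1 probe at -1.11 were at least 2-fold lower (4.45% of all probes lower and 0.929% higher). Under median scaling these 3 values were -0.99, -0.98 and -0.82, and none was 2-fold.

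**Figure D3:**
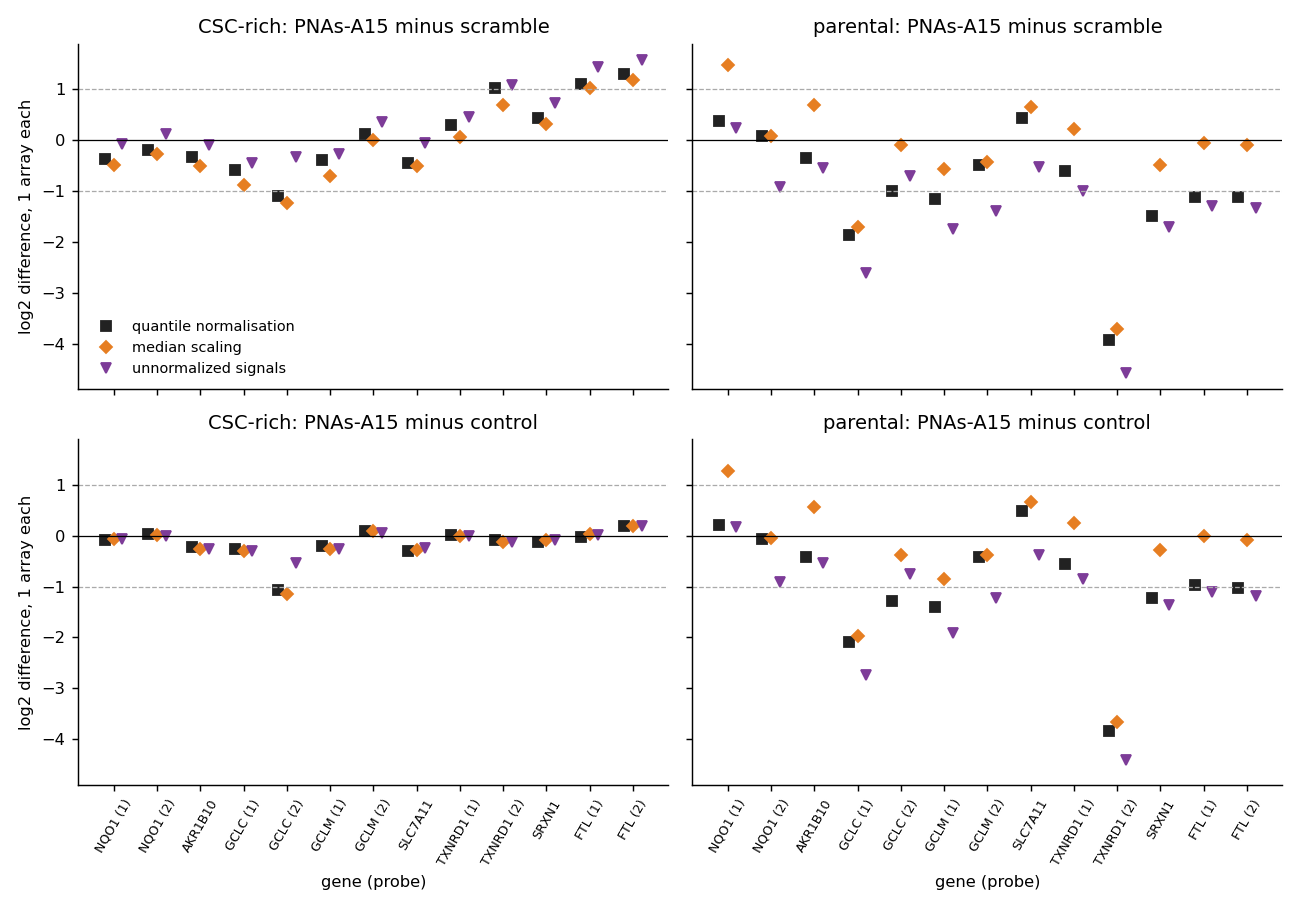
Log2 difference of PNAs-A15 minus scramble (top) and minus control (bottom) between single arrays (y axis) for 13 member probes (x axis), in CSC-rich cells (left) and parental cells (right), with squares for quantile normalization, diamonds for median scaling, triangles for unnormalized signals and dashed lines at 2-fold. In parental cells the first GCLC probe and the second TXNRD1 probe lie past 2-fold lower under all 3 scalings, while the bright NQO1 probe lies at 0.38, 1.47 and 0.24 against scramble.

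For scramble minus control in parental cells, the members' log2 differences lay between -0.29 and 0.26, and 0 of 13 probes were 2-fold apart (0.869% of all probes higher and 0.195% lower). Over both populations limma called 0 member probes and 0 of all probes (0%), with 0 members and 0.0186% of all probes at an unadjusted p under 0.05. The fitted differences lay between -0.51 and 0.09.

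The CSC-rich scramble array and the parental PNAs-A15 array, each set against its own control, differed in which members were low. FTL and the second TXNRD1 probe were low on both. GCLC and GCLM (first probes) were at log2 differences of 0.32 and 0.18 from control on the CSC-rich scramble array and at -2.08 and -1.41 from control on the parental PNAs-A15 array. These 2 arrays are the ones described above as giving the lowest signals of several members. A high share of members low on both can follow from that choice, and the contrast with all probes was not tested. In all, 6 of 13 member probes (46.2%) were lower in both differences, beside 22.9% of all probes, and 2 (15.4%, the second FTL and second TXNRD1 probes) were at least 2-fold lower in both, beside 1.99%. Under median scaling these were 4 (30.8%, beside 12.9%) and 0 (beside 1.08%), and on the unnormalized signals 10 (76.9%, beside 53.9%) and 3 (23.1%, beside 1.91%).

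**Figure D4:**
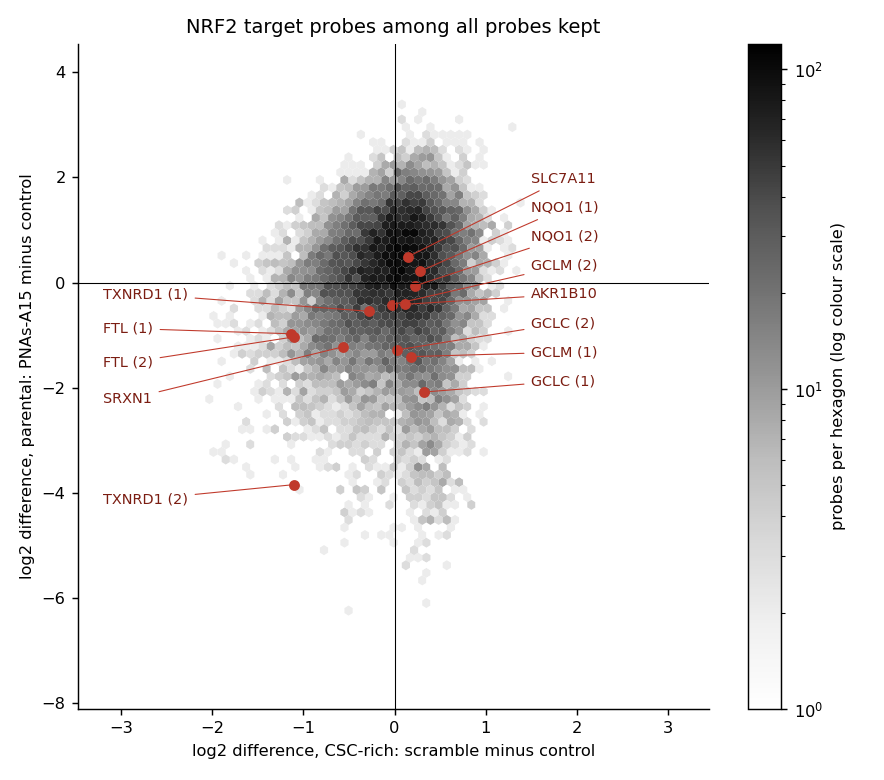
Log2 difference of scramble minus control in CSC-rich cells (x axis) against PNAs-A15 minus control in parental cells (y axis), with the 13 member probes in red over all 21526 probes kept, shaded by their number per hexagon on a log scale. The second TXNRD1 probe lies at -1.11 and -3.85 and the FTL probes near -1.1 and -1.0, while the first GCLC probe lies at 0.32 and -2.08.

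Other genes of the pathway were described from a list of 90, of which 80 had a probe and 73 passed the filter with 106 probes. For CSC-rich against parental cells, limma called 1 probe (0.943%, beside 0.729% of all probes) higher and 0 lower, and 14 (13.2%, beside 15.2%) had an unadjusted p under 0.05, 6 higher and 8 lower. The called gene was SLC40A1, ferroportin, the iron exporter. Its signals were 674.7, 1056.9 and 902.1 on the CSC-rich arrays of PNAs-A15, scramble and control, against 163.7, 257.0 and 278.9 on the parental arrays, and the populations did not overlap. The log2 difference was 2.64 ± 0.36 (SE, 3 arrays per population) at an adjusted p of 0.041 in limma's fit. It missed the threshold on the unnormalized signals (1.93, adjusted p 0.139), with no filter on dim probes (adjusted p 0.133) and without either scramble array (2.36, adjusted p 0.168). A second SLC40A1 probe (ILMN_1761833) was detected on the 3 CSC-rich arrays, at 204.0, 258.5 and 256.1, and on no parental array, at 129.1, 165.4 and 140.9. Its CSC-rich level was at least 2.37-fold higher than the parental one. This second probe was kept only through the CSC-rich arrays, where it is high, so it adds no support to the first.

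GPX3, the secreted glutathione peroxidase, and TXNRD2, the mitochondrial thioredoxin reductase, were lower on every CSC-rich array than on any parental one. GPX3 signals were 573.2, 572.7 and 672.6 on the CSC-rich arrays of PNAs-A15, scramble and control, against 2656.1, 2465.6 and 2280.6 on the parental arrays. TXNRD2 had 1920, 1696 and 1732, against 9773, 5890 and 4910. Their log2 differences, -2.24 ± 0.38 and -1.87 ± 0.38 (SE, 3 arrays per population), missed the threshold at adjusted p-values of 0.0714 and 0.108 in limma's fit. Under median scaling they were -2.37 (adjusted p 0.000944) and -2.08 (adjusted p 0.00567) and passed. By group, the median difference was -0.033 for the 14 probes of NRF2 regulators, -0.34 for 11 of thioredoxin and peroxiredoxin genes, -0.034 for 33 of glutathione genes, -0.097 for 19 of detoxification genes, -0.242 for 11 of other direct targets, -0.405 for 3 of superoxide and peroxide enzymes, -0.08 for 8 of heme and iron genes and 0.175 for 7 of NADPH genes, and SLC40A1 was the one call in all of them.

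**Figure D5:**
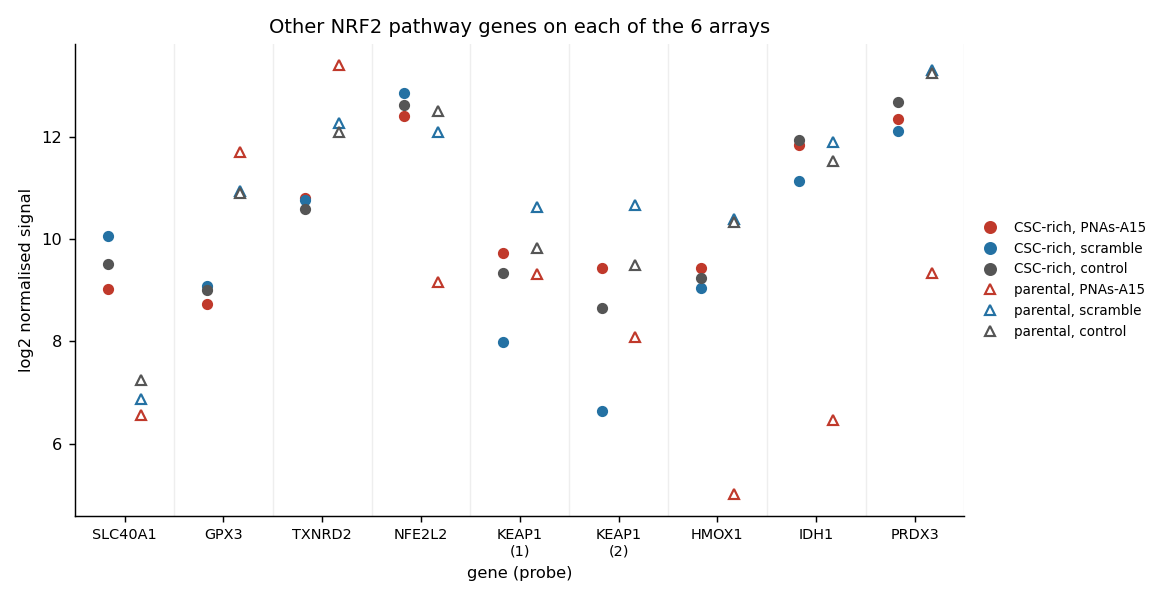
Log2 normalised signal (y axis) of 9 probes of other NRF2 pathway genes (x axis) on each of the 6 arrays, with filled circles for CSC-rich and open triangles for parental cells and the colour giving the treatment; KEAP1 (1) is ILMN_2410771 and KEAP1 (2) is ILMN_2410772. SLC40A1, GPX3 and TXNRD2 separate the populations, while NFE2L2, HMOX1, IDH1 and PRDX3 are low on the parental PNAs-A15 array.

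NFE2L2, which encodes NRF2 itself, had signals of 5371, 6815 and 6553 on the CSC-rich arrays of PNAs-A15, scramble and control, against 420.1, 5155 and 6490 on the parental arrays. In parental cells, its log2 difference of PNAs-A15 from scramble was -2.94 after quantile normalization, -2.74 under median scaling and -3.62 on the unnormalized signals. Its population difference was 1.38 ± 0.63 (log2, SE, 3 arrays per population) at an adjusted p of 0.369 in limma's fit. KEAP1 had 3 probes, of which ILMN_1711787 was not detected on any array. ILMN_2410771 had signals of 991.7, 313.3 and 810.1 in CSC-rich cells, against 471.2, 2022 and 1148 in parental cells, and ILMN_2410772 had 838.0, 186.2 and 554.8, against 246.0, 2069 and 937.2. KEAP1 was thus lowest on the CSC-rich scramble array by both detected probes. Its population differences of -0.91 ± 0.60 and -1.18 ± 0.94 had adjusted p-values of 0.529 and 0.611 in limma's fit, and without either PNAs-A15 array they were -1.56 (adjusted p 0.0204) and -2.44 (adjusted p 0.00476). The fit without those arrays had 1 residual degree of freedom and called 15.8% of all probes. In the control pair alone the KEAP1 log2 differences were -0.485 and -0.85, both under 2-fold. In the scramble pair they were -2.64 and -4.02.

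HMOX1, heme oxygenase 1, had signals of 842.1, 561.8 and 768.5 on the CSC-rich arrays of PNAs-A15, scramble and control, against 113.1, 1740 and 1574 on the parental arrays, and was not detected on the parental PNAs-A15 array. There it was at least 20.3-fold lower than scramble and at least 19.5-fold lower than control. Its fitted population difference, 0.67 ± 1.11 (log2, SE; limma's adjusted p 0.835), turned to -1.22 (adjusted p 0.0205) without either PNAs-A15 array, in the fit that called 15.8% of all probes. PRDX3, a mitochondrial peroxiredoxin, had signals of 5209, 4239 and 6768 in CSC-rich cells, against 475.3, 11709 and 10630 in parental cells. A second PRDX3 probe (ILMN_2395969) was likewise lowest on the parental PNAs-A15 array, at -3.31 from scramble on the log2 scale beside -3.96 for the first. IDH1, which makes NADPH in the cytosol, had 3723, 2198 and 4117, against 160.9, 4543 and 3416. Its second probe (ILMN_2091347) differed less there, by -0.86 from scramble beside -5.44 for the first. FECH, which inserts iron into heme, was also below detection on the parental PNAs-A15 array, at least 2.32-fold under its scramble level by 1 probe, while its other probe (ILMN_1774091) lay 0.16 log2 units above scramble.

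For PNAs-A15 against scramble over both populations, limma called 0 of the 106 probes, and 0 had an unadjusted p under 0.05. Against control it called 0, with 1 at an unadjusted p under 0.05. Fitted values against scramble were -2.37 ± 1.36 for IDH1, -1.86 ± 0.99 for PRDX3 and -1.70 ± 0.77 for NFE2L2 (log2, SE, 2 arrays per treatment), and HMOX1, undetected on the parental PNAs-A15 array, has only its bounds. All 4 were at an adjusted p of 0.849 in limma's fit. In parental cells alone, 14 of the 106 probes (13.2%) were at least 2-fold higher under PNAs-A15 than under scramble and 24 (22.6%) at least 2-fold lower, beside 19.5% and 19.7% of all probes. Under median scaling 37 were higher and 18 lower, beside 35.9% and 13.1% of all probes, and on the unnormalized signals 1 was higher and 39 lower, beside 1.44% and 27%. In CSC-rich cells, 0 were 2-fold apart from control in either direction, beside 0.311% of all probes higher and 0.246% lower. Scramble against control gave 0 calls and 0 probes at an unadjusted p under 0.05 over both populations. CES1, a carboxylesterase, had signals of 266.7, 169.4 and 290.3 in CSC-rich cells, against 166.4, 146.0 and 141.5 in parental cells, and was not detected on the parental scramble and control arrays. AKR1C2, a close paralog of AKR1C1, had 215.7, 133.7 and 235.3 in CSC-rich cells, against 113.0, 238.8 and 201.0 in parental cells, and was not detected on the CSC-rich scramble and parental PNAs-A15 arrays. A brighter AKR1C2 probe (ILMN_2412336) had signals of 26100, 28442 and 31564 in CSC-rich cells, against 49186, 36730 and 35212 in parental cells, and was highest on the parental PNAs-A15 array. GSTM2 and GSTM4, glutathione S-transferases of the mu class, each had a dim probe, detected on 5 arrays (ILMN_1713162) and 3 arrays (ILMN_1716979). Their brighter probes were detected on all 6 arrays, with signals of 9561.5 to 25294.6 for GSTM2 (ILMN_2201580) and 471.8 to 530.9 for GSTM4 (ILMN_1651800). In parental cells these brighter probes lay 1.02 and 1.06 log2 units above scramble under PNAs-A15, where the dim ones were not detected.

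The probe with the widest range, the second of TXNRD1, was set against all others detected on 6 arrays by the root mean square distance between log2 levels centred on their own mean over the 6 arrays. The nearest genes were CNBP (0.146 log2 units), DBI (0.150), ATP2A2 (0.187), TIMM23 (0.190) and SPG21 (0.218), and none of them belongs to the pathway lists. CNBP had log2 levels of 12.28, 11.13 and 12.30 on the CSC-rich arrays of PNAs-A15, scramble and control, against 9.04, 12.65 and 12.42 on the parental arrays. The nearest other members lay farther away, the first GCLC probe at 0.827 and SRXN1 at 0.939, and the first TXNRD1 probe lay at 1.15. The genes named were picked as nearest from all probes detected on 6 arrays, of which only 12 are member probes. A nearer non-member was therefore likely in advance. How many of all probes lay within the members' distances was not counted, so no conclusion is drawn.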

How the data were processed

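The authors hybridised cRNA of each group to Illumina HumanHT-12 v4 BeadChips and deposited, per probe and array, an average signal intensity and a detection p-value. GenomeStudio 2011.1 was used, per the submitters' processing notes, and other steps and the genome build are not recorded in these sources. The deposited series matrix held the same intensity values in 100% of cells, linear and not normalized between arrays, with array medians of 129.8 to 151.6. Columns left unused numbered 0.

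From the deposited intensity values, limma 3.58.1 (R 4.3.3) made log2 values: normexp background correction (neqc, offset 16), the negative controls being inferred from detection p-values, then quantile normalization. Probes detected on at least 2 arrays were kept (21526). Platform annotation gave 30113 probes 1 symbol, 8 several and 17202 none, and 30074 matched the RefSeq table of GRCh38.p14, used for names and promoters. One additive model of population and treatment was fitted over the 6 arrays (2 residual degrees of freedom), with p-values adjusted by Benjamini-Hochberg over all probes kept and a threshold of 0.05. A difference of treatment effects between populations enters its spread. Single arrays were compared by counts at 2-fold, without a test. The number of arrays limits the precision.

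Members and lists were chosen with earlier results of these data known. Other pathway genes are named where they passed the threshold or were among the 4 largest differences of a comparison, and NFE2L2, KEAP1 and HMOX1 always. The alternatives were median scaling, unnormalized log2 signals, an offset of 50, no filter, detection on all 6 arrays, 1 probe per gene, leaving out a treatment's arrays, and population alone. The scripts were tested on simulated data.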

Additional observations from a re-analysis of the deposited data

Results flagged for a closer look

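The second TXNRD1 probe (ILMN_2324421) and both FTL probes differed from scramble under PNAs-A15 in opposite directions in the populations, by at least 2-fold in each after quantile normalization. Of the 13 member probes, 9 had opposite signs, these 3 with at least 2-fold on both sides. The same count was not made over all probes, so whether it is particular to the members was not tested. Of all probes, 8.23% were at least 2-fold higher than scramble in CSC-rich cells, and 19.7% at least 2-fold lower in parental cells. For TXNRD1 the log2 difference was 1.03 in CSC-rich cells and -3.92 in parental cells. For FTL it was 1.11 in CSC-rich cells and -1.11 in parental cells by the first probe (ILMN_1740429), and 1.30 in CSC-rich cells and -1.12 in parental cells by the second (ILMN_1814823). Under median scaling none of the 3 kept 2-fold on both sides: TXNRD1 was at 0.70 in CSC-rich cells and -3.71 in parental cells, and FTL at 1.02 and 1.18 in CSC-rich cells and -0.061 and -0.102 in parental cells. Each population has 1 array per treatment, so the difference between the populations was not tested. Against control, the CSC-rich values of the same 3 probes were -0.08, -0.02 and 0.20, beside -3.85, -0.97 and -1.03 in parental cells.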

How the results depend on the processing

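With 1 array per group and 2 residual degrees of freedom, the narrowest 95% interval on a member's population difference, that of AKR1B10, ran from -0.73 to 0.82 log2 units. Replicates could not be paired because each group has 1 array. The additive fit itself sets the populations against each other within each treatment.

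Member calls stayed at 0 of the probes tested in all 4 comparisons under every alternative run for each (the treatment comparisons were not refitted with arrays left out or with population alone), except for CSC-rich minus parental cells, where 2 (both FTL) passed without either PNAs-A15 array and 2 (both FTL) passed with population alone and without the CSC-rich scramble and parental PNAs-A15 arrays, a setting chosen after seeing the data.

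Signs turned in 24 of 150 refits of CSC-rich minus parental cells, none of them past the threshold. With the parental PNAs-A15 array left out they were AKR1B10 -0.083, GCLC -0.054 and -0.19, GCLM -0.10 (first probe) and TXNRD1 -0.12 and -0.84. With the CSC-rich scramble array left out as well they were AKR1B10 -0.16, GCLC -0.21 and -0.37, GCLM -0.19 and TXNRD1 -0.021 and -0.48. Without either PNAs-A15 array they were NQO1 0.01 (first probe), GCLM -0.002 and TXNRD1 -0.17 and -0.998. Median scaling gave AKR1B10 -0.067, GCLC -0.052 (second probe) and TXNRD1 -0.14 (first probe), and unnormalized signals GCLM 0.071 (second probe) and TXNRD1 -0.005 (first probe). The second GCLM probe was at 0.063 without either control array and 0.11 without either scramble array, where SRXN1 was at 0.19.

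For PNAs-A15 minus scramble, 3 of 72 turned: AKR1B10 0.092 and TXNRD1 0.14 (first probe) under median scaling, and SLC7A11 -0.29 unnormalized. For PNAs-A15 minus control, 5 of 72 turned: AKR1B10 0.15, TXNRD1 0.12, FTL 0.008 and 0.058 under median scaling, and SLC7A11 -0.32 unnormalized. For scramble minus control, 6 of 72 turned: GCLM 0.07 (first probe) under median scaling and, unnormalized, NQO1 -0.036 and -0.062, AKR1B10 -0.088, GCLM -0.07 (second probe) and SLC7A11 -0.023. Of the other pathway genes, CSC-rich minus parental HMOX1 turned to -1.22 without either PNAs-A15 array, -1.12 without the parental one and -1.02 without the CSC-rich scramble array too, IDH1 to -0.18 and -0.079 in the first and second of these, and KEAP1 (ILMN_2410772) to 0.25 without either scramble array. The cause was not tested.

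Counts of member probes at least 2-fold apart, here with the undetected GCLC probe at its measured value, moved as follows. With 1 probe per gene (8 members), fewer probes are tested: CSC-rich PNAs-A15 gave 1 higher and 0 lower against scramble and 0 lower against control, CSC-rich scramble 1 lower than control, parental PNAs-A15 3 lower than control, and CSC-rich against parental cells 1 higher under PNAs-A15 and 2 lower under scramble. Over all 12101 genes the shares were 6.39%, 3.1%, 0.215%, 3.01%, 17.2%, 18.5% and 13.2% in that order. Median scaling gave 0 lower for CSC-rich scramble against control (3.02% of all probes), 1 higher and 2 lower for parental PNAs-A15 against each of scramble (35.9% and 13.1%) and control (34.6% and 12.9%), and 2 lower for CSC-rich against parental cells under PNAs-A15 (32.9%). Unnormalized signals gave 0 lower for CSC-rich PNAs-A15 against scramble (0.079% of all probes) and against control (0.0372%), and 4 higher and 0 lower for CSC-rich against parental cells under PNAs-A15 (22.4% and 3.81%). The cause of these moves was not tested beyond the number of probes. The number of probes called for CSC-rich minus parental cells, 157 of 21526, was 995 under median scaling, 0 on unnormalized signals or with no filter, 148 with an offset of 50, 231 for probes detected on all 6 arrays, 279 with 1 probe per gene, 451, 60 and 3401 without either control, scramble or PNAs-A15 array, 645 with population alone, 3647 also without the parental PNAs-A15 array, and 5015 without both arrays. For PNAs-A15 it was 27 against scramble and 19 against control under median scaling, all lower, and 0 otherwise.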
